A study of Mus musculus with 36 samples.

Results

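In the ATAC-seq lists of this series, 381 open regions were at least 5000 bp wide, among 122759 listed regions in all. They were taken from all 9 lists by their start and end on chromosomes 1 to 19, where 121060 regions were listed, so 0.315% of the regions there were wide. Only width entered the choice, but region ends, and so width, are not independent of the tag ratio, since every narrower region that touched a wide one stood in another of the authors' lists. The 381 comprised 182, 116 and 83 regions on days 4, 7 and 14.

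ATAC-seq marks accessible DNA with a transposase that inserts sequencing adapters into it, and a tag is a sequenced read placed in a region. Most accessible regions in a nucleus are short stretches at promoters and enhancers from which nucleosomes have been displaced. Accessibility that runs on over many kilobases is known from clusters of enhancers and from the bodies of genes that are transcribed at high rates, among them contractile protein genes in heart muscle. After a myocardial infarction the surviving cardiomyocytes beside the scar, the border zone, change their gene programme, while a sham operation leaves the muscle perfused.

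The 6 libraries were 1 border zone and 1 sham library from each of 3 time points, 4, 7 and 14 days after surgery, all from the left ventricle of mice on the FVB/N background. The day 4 libraries came from mice labelled as carrying Cdh5-Cre, a driver active in endothelial cells, with a Sun1-sfGFP nuclear tag. Their GFP-positive nuclei were further enriched for cardiomyocytes through PCM1, a protein at the cardiomyocyte nuclear envelope, and read as pairs of 76 bases. The libraries of days 7 and 14 are labelled Myh6-MerCreMer;nTnG, a tamoxifen-inducible Cre under a cardiomyocyte promoter with a nuclear reporter, and their protocol also names the Sun1/sfGFP allele. Border zone and sham mice of those days alike received 20 mg/kg tamoxifen before surgery, and 50000 sorted nuclei went into each library. No tamoxifen is given for day 4. Day 4 therefore differs from the later days in mouse line, stated tamoxifen, nuclear isolation and aligner as well as in time, and these cannot be told apart. Each condition has 1 library per day, so values within a day carry no test and intervals on them cover counting error only. Fewer cells of a type and less signal per cell cannot be told apart in such bulk libraries.

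The listed regions on chromosomes 1 to 19 held 5394044 border zone and 5822653 sham tags on day 4, 2685194 in border zone and 3793282 in sham on day 7, and 10158326 in border zone and 13760421 in sham on day 14. Listed border zone values are scaled to the sham library by the authors. The day 4 non-differential list is the exception, with unscaled counts, and it holds 174 of the 182 wide regions of that day. Ratios below use the listed values, so most ratios of day 4 are unscaled and those of days 7 and 14 are scaled, while tags per kb and shares of tags use the whole tags behind them. The authors sorted the regions of each day into border zone-higher, sham-higher and non-differential lists. Every differential region has a listed fold of at least 1.75, and its larger value is at least 35, 50 and 150 tags on days 4, 7 and 14. Coordinates are those of the mouse build mm9, counted from 1. No annotation or sequence of that build was used here, so genes at the regions are not named, and the labelled cell type was not checked against marker genes.

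The wide regions were mostly close to the lower limit of 5000 bp, with a thin tail of very long ones. Region edges lie on a grid of 500 bp, and 52 of the 182 wide regions of day 4, 32 of the 116 of day 7 and 29 of the 83 of day 14 were exactly 5000 bp. The median width was 6000 bp on day 4, 6000 bp on day 7 and 5500 bp on day 14, against a median of 1000 bp for narrower regions on each day. Widths of 10000 bp or more occurred 13, 11 and 9 times on days 4, 7 and 14. Wide regions made up 2.08%, 1.99% and 1.15% of the listed length on these days, and 0.395%, 0.336% and 0.205% of the regions. The regions just below the limit, at 4500 bp, numbered 94, 45 and 44 on days 4, 7 and 14. Their median density was 291, 216 and 772 tags per kb, against 279, 242 and 737 tags per kb at exactly 5000 bp, so the limit marks no step in density.

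**Figure D1:**
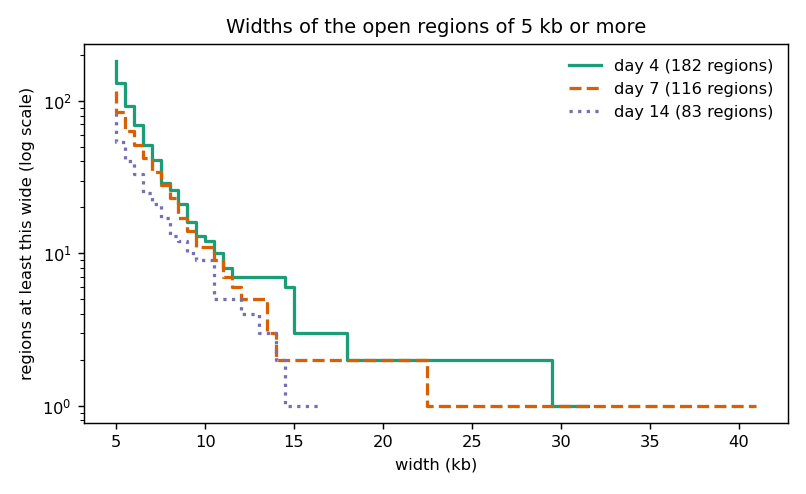
Number of open regions (log axis) that are at least as wide as the value on the horizontal axis (kb), with 1 line for each day. Counts fall steeply from 182, 116 and 83 regions at 5 kb to 13, 11 and 9 at 10 kb, and the longest regions reach 31.5 kb on day 4, 41.0 kb on day 7 and 16.5 kb on day 14.

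The widest region was chr5:122909751-122950750 of day 7, at 41.0 kb. It held 2140 border zone tags by an approximate recovery, listed as 2882 after scaling, against 7673 sham tags. The listed value was 2.66 times higher in sham (95% interval 2.54 to 2.79), and the region stood in the sham-higher list. The next in width was chr14:35360251-35391750 of day 4, at 31.5 kb, with 6775 border zone and 7439 sham tags and a ratio of 0.911 (0.881 to 0.941). The third, chr6:47607751-47637250 of day 4, was 29.5 kb wide with 9141 border zone and 9703 sham tags. The fourth, chr2:76718251-76740750 of day 7, spanned 22.5 kb and held 1213 border zone tags, again approximate and listed as 1634, against 3907 sham tags, which is 2.39 times higher in sham (2.24 to 2.55). The remaining 6 of the 10 widest measured 14.5 to 18 kb and stood in the non-differential lists, as did the other region of 14.5 kb that tied for the tenth place. Of the 10 widest regions, the 2 from day 7 were the only ones in a differential list.

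Wide regions were also dense. Their median over both libraries was 284 tags per kb on day 4, 240 on day 7 and 718 on day 14, against 132, 113 and 366 tags per kb for narrower regions, or 2.16, 2.12 and 1.96 times as much. In the border zone libraries alone the median was 137, 97.8 and 297 tags per kb on days 4, 7 and 14, and in the sham libraries 151, 148 and 428 tags per kb. On day 4, 170 of 182 wide regions exceeded the median density of narrower ones, as did 112 of 116 on day 7 and 82 of 83 on day 14. Beyond the 5000 bp limit, width and density had little relation across wide regions, with a Spearman rho of 0.08 on day 4 (n = 182), 0.08 on day 7 (n = 116) and 0.03 on day 14 (n = 83). Regions of a day share their libraries, and these coefficients are descriptions across regions.

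The densest wide region of day 4 was chr10:7228751-7237250, with 401 border zone and 384 sham tags per kb. On day 7 it was chr6:47617751-47624750, with 408 border zone and 511 sham tags per kb before scaling. Its listed, scaled ratio of border zone to sham was 1.08 (1.02 to 1.13). On day 14 chr14:35380751-35388250 stood apart, with 976 border zone and 2845 sham tags per kb, or 3821 tags per kb in all. The next densest region of that day, chr17:56238251-56243750, held 2205 tags per kb over both libraries. The lowest densities were 86.7 tags per kb on day 4, at chr13:12010251-12016250, 95.1 on day 7, at chr11:6254251-6260750, and 322 on day 14, at chr5:15194751-15200250. The day 4 minimum was non-differential, that of day 7 was sham-higher and that of day 14 was border zone-higher.

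The comparison the design centres on, border zone against sham, gave a lower sum over wide regions in the border zone on each day. The listed border zone sum over the sham sum was 0.900 (95% interval 0.894 to 0.905), 0.837 (0.830 to 0.844) and 0.942 (0.936 to 0.947) on days 4, 7 and 14. Over all listed regions the same ratio was 0.931, 0.950 and 1.01. The median log2 ratio of wide regions was -0.14, -0.17 and -0.05, against -0.09, -0.15 and 0.03 for all regions. Border zone values exceeded sham values in 54 of 182 wide regions on day 4, 42 of 116 on day 7 and 36 of 83 on day 14. Over all regions they did so in 19676 of 46091, 15232 of 34484 and 20981 of 40485 on these days. On day 14 the ratio over regions of 10000 bp or more was 0.991, close to 1.

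In a share of a library's listed tags, a scaling factor common to that library cancels. Region ends may still depend on the authors' scaling, as do the approximate whole tags of 7, 10 and 26 wide regions on days 4, 7 and 14. By this share, wide regions held 3.49% of border zone and 3.6% of sham tags on day 4. On day 7 they held 3.46% of border zone and 3.94% of sham tags, and on day 14 1.82% and 1.94%. The border zone share was lower on 3 of 3 days, by a mean of 0.239 percentage points (border zone minus sham -0.239 ± 0.209, SD, n = 3 days). An exact two-sided sign-flip permutation test over the 3 daily differences gave p = 0.25, the smallest value 3 days allow, so the difference cannot pass a threshold of 0.05 in this design.

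**Figure D2:**
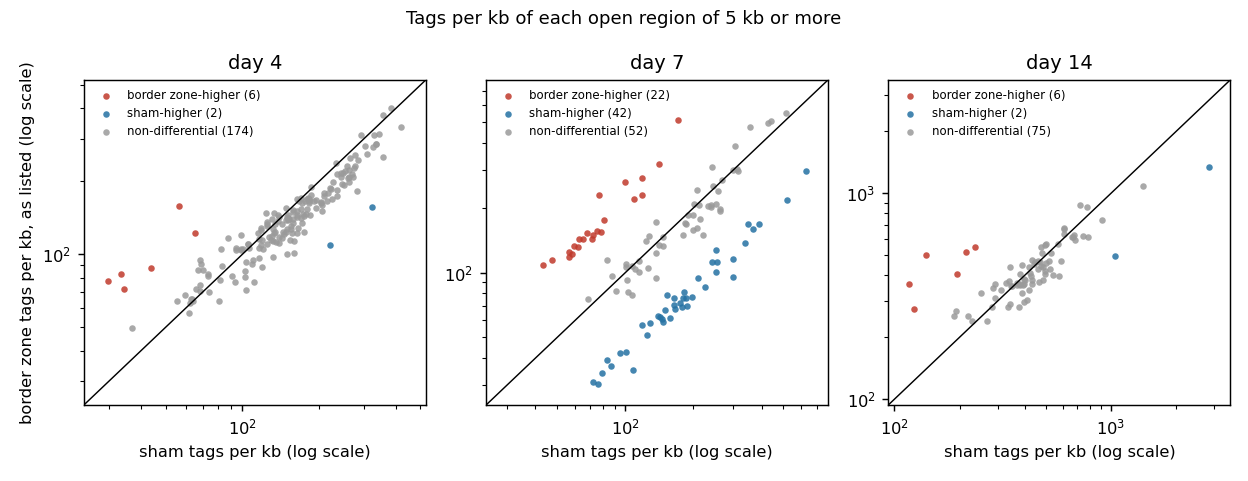
Border zone tags per kb as listed (vertical, log axis) against sham tags per kb (horizontal, log axis) for each of the 182, 116 and 83 wide regions of days 4, 7 and 14, coloured by the authors' list. The diagonal marks equal values, and day 7 shows separate bands of 22 regions in the border zone-higher list and 42 in the sham-higher list, where days 4 and 14 show 6 and 2 of each.

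The ratios of wide regions were far more spread on day 7 than on the other days, and those of all regions were also most spread on day 7. On day 7, 22 of 116 wide regions were border zone-higher, which is 19% (95% interval 12.3 to 27.3) against 17.4% of all regions of that day, and 42 were sham-higher, which is 36.2% (27.5 to 45.6) against 22.1% of all regions. On day 4, 6 of 182 wide regions were border zone-higher, or 3.3% against 12.2% of all regions, and 2 were sham-higher, or 1.10% against 7.39%. On day 14, 6 of 83 were border zone-higher, or 7.23% against 13.4%, and 2 were sham-higher, or 2.41% against 6.72%. The wide shares of both differential lists lay below those of all regions on days 4 and 14, and the sham-higher share lay above it on day 7, in 1 library pair per day and without a test. The middle 50% of log2 ratios among wide regions ran from -1.16 to 0.21 on day 7, against -0.27 to 0.04 on day 4 and -0.24 to 0.14 on day 14. Among all regions it ran from -0.72 to 0.53 on day 7, -0.36 to 0.33 on day 4 and -0.36 to 0.47 on day 14.

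The share of each list by width class is given as a description, because touching regions are separated where the list changes and width is therefore partly set by the ratio. On day 7 the sham-higher share was 22.7% for regions up to 1 kb, 20.0% at 1.5 to 2 kb, 21.9% at 2.5 to 4.5 kb, 35.2% at 5 to 9.5 kb (37 of 105) and 45.5% at 10 kb or more (5 of 11). On day 4 it was 10.1%, 2.47%, 0.696%, 1.18% and 0% over the same classes, and on day 14 it was 8.24%, 2.79%, 1.36%, 2.70% and 0%. The last class holds only 13, 11 and 9 regions on days 4, 7 and 14. Among the factors tried, scaling changed the list counts of all regions but not those of the wide ones. Regions were kept as the authors had divided them, and the ratios themselves move with the factor. With a fold of 1.75 on whole tags and 1 factor per day, taken from the most frequent factor, the summed tags or the median ratio, the wide regions of day 7 still split into 22 border zone-higher and 42 sham-higher. No wide region of day 7 had a listed fold between 1.47 and 1.95, and the factors tried ran only from 1.35 to 1.49. Factors this close could not move a wide region across 1.75, so the unchanged split does not show that wide regions are less sensitive to scaling. Days 4 and 14 had such gaps too, from 1.56 to 1.89 and from 1.45 to 2.07. All regions of day 7 split into 5995 and 7619 as listed and into 7248 and 5586 with the median ratio, so the border zone-higher part of all differential regions moved to 56.5% there from 44.0% as listed.

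**Figure D3:**
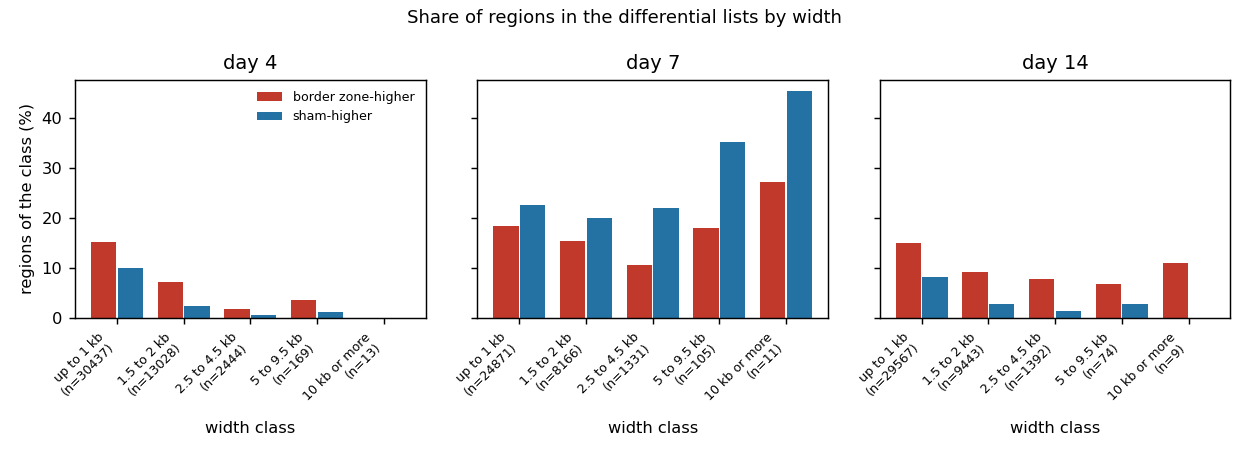
Share of regions (%, from 0) in the border zone-higher list (left bars) and the sham-higher list (right bars) for 5 width classes on days 4, 7 and 14, with the number of regions of each class below it. On day 7 the sham-higher bar reaches 35.2% and 45.5% in the classes from 5 kb, against 22.7% up to 1 kb, while on days 4 and 14 both bars are highest in the narrowest class.

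At the upper end of the ratios, chr8:56198751-56209250 on day 14 held 368 border zone tags per kb, approximate, and 140 sham tags per kb. Its listed ratio of 3.59 (3.38 to 3.82) was the highest of any wide region. The next on that day was chr2:173085751-173090750, with 264 border zone and 117 sham tags per kb and a ratio of 3.09 (2.80 to 3.41). On day 7 the highest ratios were 3.02 at chr17:3075751-3083250, with 382 border zone and 170 sham tags per kb, and 3.02 at chr7:38972251-38977250, with 171 (approximate) and 76.2. On day 4 chr10:74632251-74637250 led with 153 border zone (approximate) and 56.2 sham tags per kb and a ratio of 2.81 (2.45 to 3.23).

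At the lower end, chr8:47287251-47292750 on day 7 held 70.7 border zone (approximate) and 299 sham tags per kb, and its listed value was 3.14 times higher in sham (2.81 to 3.52). chr8:71410251-71417250 followed with 27.3 border zone and 108 sham tags per kb, 3.07 times higher in sham. On day 14 the densest wide region of the day, chr14:35380751-35388250, also had its lowest ratio and was 2.13 times higher in sham (2.07 to 2.18). On day 4 the lowest ratio was at chr14:55605251-55610750, with 142 border zone and 323 sham tags per kb, 2.06 times higher in sham (1.90 to 2.25). Denser wide regions tended to have lower border zone ratios on day 4 (Spearman rho -0.45, n = 182) and day 14 (-0.39, n = 83) but not on day 7 (-0.00, n = 116), as descriptions across regions of shared libraries whose sham tags enter both measures.

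Many wide regions lay beside one another. Of the wide regions, 55 of day 4, 43 of day 7 and 33 of day 14 had another wide region of the same day within 50 kb. On day 7, 16 of the 22 border zone-higher regions and 16 of the 42 sham-higher regions had a wide neighbour of the same list within that distance. Most of the border zone-higher regions of day 7 came from a pair of clusters. In chr5:14900001-15300000 there were 7, and in chr8:19600001-20100000 there were 10, which leaves the other 5 elsewhere. In the chromosome 5 cluster the listed regions held 120 border zone and 61.7 sham tags per 1000000 listed tags on day 4, 5466 in border zone and 2693 in sham on day 7, and 1625 in border zone and 702 in sham on day 14. In the chromosome 8 cluster they held 1606 border zone and 1301 sham tags per 1000000 listed tags on day 4, 7558 in border zone and 3694 in sham on day 7, and 1335 in border zone and 851 in sham on day 14. The ratio of listed tags exceeded 1 in both clusters on every day, at 1.85, 1.94 and 2.33 on chromosome 5 and 1.15, 1.95 and 1.54 on chromosome 8. The relative abundance of tags in these clusters differed more between day 4 and day 7 than between the conditions of either day. The part of the mouse line, tamoxifen, isolation and aligner in this was not tested. Without both clusters the border zone over sham ratio of wide regions was 0.752 on day 7.

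Wide regions often ended where another listed region began. On days 4, 7 and 14, 47, 60 and 24 wide regions abutted another listed region with no base between them, which is 25.8%, 51.7% and 28.9% of the wide regions against 12.9%, 23.1% and 13.3% of all regions. There were 171 narrower regions that abutted a wide one, counted once per contact, and all 171 stood in a different list from it. On day 7, 43 of these were single 500 bp steps, with a median density 1.45 times that of the wide region they touched. Joining abutting regions of a day, whatever their list, gave 258, 254 and 161 stretches of at least 5000 bp on days 4, 7 and 14, of which 83, 149 and 81 contained no region that was wide on its own. Lists were mixed in 123, 198 and 102 of the stretches. The longest joined stretches were 37.0 kb on day 4 (chr6:47600251-47637250), 51.0 kb on day 7 (chr5:122899751-122950750) and 52.0 kb on day 14 (chr5:122897251-122949250). The stretch of day 7 consisted of 4 regions and that of day 14 of 22.

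Wide regions of different days that overlapped were joined into 266 spans. Of these, 196 were wide on 1 day, 48 on 2 days and 22 on all 3 days. By day, 113 spans were wide on day 4 alone, 56 on day 7 alone and 27 on day 14 alone, while 20 were wide on days 4 and 7, 17 on days 4 and 14 and 11 on days 7 and 14. A span that was not wide on a day was seldom missing from that day. Listed regions on all 3 days were found in 238 spans, and 182 were either wide or split into several narrow regions on every day. In 213 spans, or 80.1%, at least 1 other day listed several narrow regions in place of a wide one, and among spans wide on 1 day this held for 169, or 86.2%. Where a span was split, the median number of narrow regions was 2, 3 and 3 on days 4, 7 and 14, and they covered a median of 73.3%, 81.8% and 73.3% of the span.

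Of the 172 spans wide on day 4, 42 were wide on day 7 as well, 109 were split into several narrow regions, 18 held 1 narrow region and 3 held none. On day 14 the same spans gave 39, 96, 30 and 7. Of the 109 spans wide on day 7, 42 were wide, 40 split, 13 held 1 narrow region and 14 held none on day 4, and 33, 56, 8 and 12 did so on day 14. Of the 77 spans wide on day 14, 39 were wide and 32 split on day 4, and 33 were wide and 40 split on day 7. A region with too few tags to be listed has no value here, so a missing region is not a measured absence of accessibility.

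**Figure D4:**
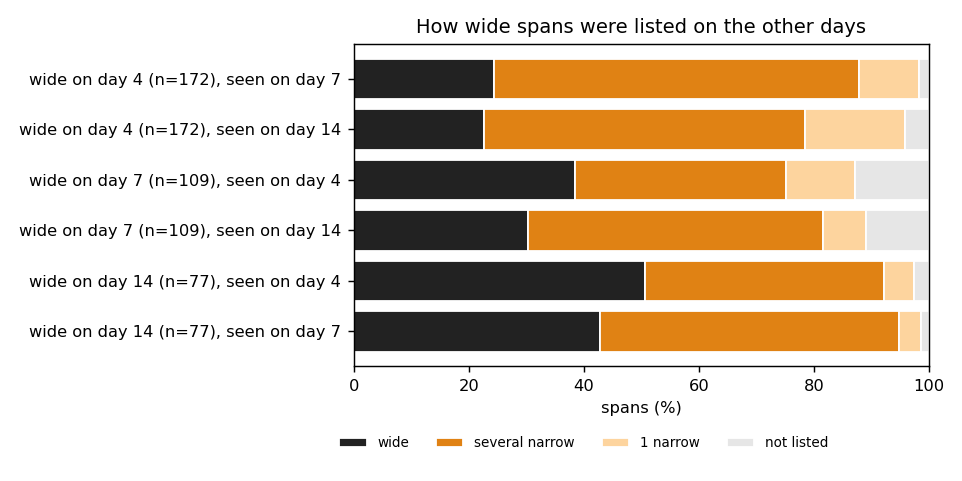
For all spans wide on a given day (rows, with their number), the percentage listed on another day as wide, as several narrow regions, as 1 narrow region or not at all. Between 36.7% and 63.4% of the spans were split into several narrow regions on the other day, and at most 12.8% were not listed.

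Among spans wide on 1 day only, those split most finely show how far a listing can change. chr2:94180751-94190750 was a single region of 10 kb on day 4, with 1453 border zone and 1385 sham tags and a ratio of 1.05. On day 7 it was listed as 7 narrow regions covering 55% of it, with 270 border zone and 587 sham tags, and on day 14 as 5 covering 45%, with 737 and 1391. chr10:80873751-80881250 was 1 region of 7.5 kb on day 7, with 1149 border zone and 1789 sham tags, but 6 narrow regions on day 4 and 3 on day 14, and its listed ratio was 0.688, 0.865 and 1.16 on days 4, 7 and 14. chr2:150657251-150665750, wide on day 4 only, had 4 narrow regions on day 7 and 6 on day 14, with ratios of 1.19, 0.827 and 0.817. chr6:47600251-47606750 was covered fully on every day, by 1 region on day 4, 4 on day 7 and 6 on day 14, with ratios of 0.922, 1.24 and 1.46. In the last case the span, set by its day 4 region, was covered on every day but divided differently. On days 7 and 14 its listed regions reached past its ends, and their whole tags enter the ratios, so the ratios compare unlike stretches.

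Only 8 of the 196 spans wide on 1 day had no listed region on either other day. The widest of these, chr1:43185251-43196250, was 11.0 kb on day 7 and held 626 border zone and 2161 sham tags. With its wide neighbours chr1:43176751-43184750, chr1:43204751-43210250 and chr1:43211251-43219250 it formed a sham-higher cluster of 4 wide regions, whose listed ratios lay between 0.380 and 0.451. The lists of days 4 and 14 held no region there over 48.0 kb and 57.0 kb, and whether too few tags or rows left out of these tables account for that was not tested. This stretch holds 4 of the 8 spans. Listed regions with 118 and 924 tags over both libraries flanked that gap on day 4, and regions with 947 and 4606 tags on day 14. The remaining span of the 5 widest was chr13:11664251-11673250, wide and border zone-higher on day 4, with 626 border zone tags, approximate, and 310 sham tags.

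The widest span, chr5:122897251-122950750, covered 53.5 kb and was sham-higher or non-differential in every listed region. Its tags per kb were 112 in border zone and 154 in sham on day 4, 59.1 in border zone and 207 in sham on day 7, and 301 in border zone and 630 in sham on day 14. The listed ratio was 0.729 (0.704 to 0.756), 0.384 (0.369 to 0.400) and 0.656 (0.643 to 0.668) on days 4, 7 and 14. On day 4 it was divided into 15 regions, 4 of them wide and 6 sham-higher, all with a ratio below 1. On day 7 it was 4 regions, 2 of them wide and sham-higher, and on day 14 it was 22 regions, 2 of them wide and 11 of the narrow ones sham-higher. Over the 3 days its log2 difference, border zone over sham, was -0.60 (SE 0.23), with an adjusted p of 0.0869 by edgeR's quasi-likelihood test, which does not pass 0.05.

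**Figure D5:**
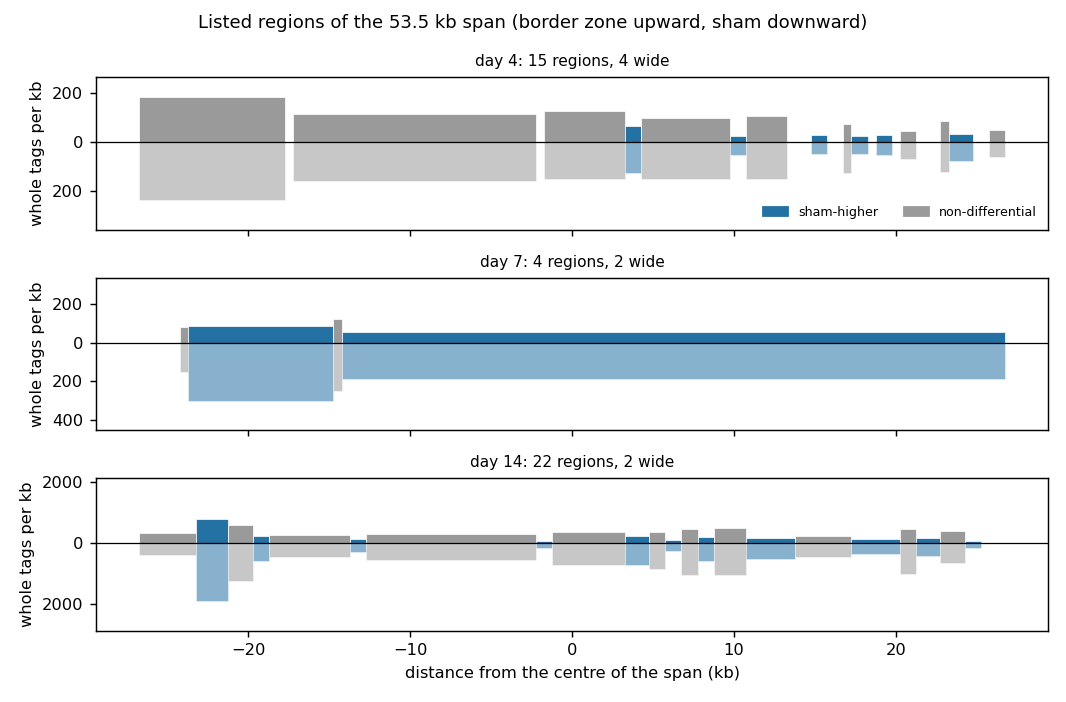
Whole, unscaled tags per kb of every listed region in the 53.5 kb span on chromosome 5, border zone upward and sham downward from 0, against the distance from its centre (kb), with a vertical scale of its own for each day and colour for the authors' list. The same stretch is listed as 15, 4 and 22 regions on days 4, 7 and 14, and over the whole span the sham density exceeds the border zone density on each day.

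Among the 22 spans wide on all 3 days, the border zone ratio was above 1 in 3, 6 and 11 spans on days 4, 7 and 14. It was above 1 on every day in 3 spans, below 1 on every day in 11 and mixed in 8. The lowest mean log2 ratio was at chr11:58819251-58827750, with 1279 border zone and 1752 sham tags on day 4, 581 in border zone and 1695 in sham on day 7, and 2015 in border zone and 5634 in sham on day 14. Its listed ratios of 0.730, 0.462 and 0.490 had intervals below 1 on each day. chr15:76843751-76854250 followed the chromosome 5 span with ratios of 0.707, 0.433 and 0.710, then chr2:76710751-76742750 with 0.861, 0.429 and 0.731 and chr12:112219751-112226250 with 0.864, 0.452 and 0.753. All of these 5 spans, chosen for a low mean over the same days, had their lowest ratio on day 7. The median log2 ratio of the 22 spans was also lowest on day 7, at -0.21, -0.39 and -0.01 on days 4, 7 and 14.

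The highest mean log2 ratio among them was at chr8:56198751-56209250, whose boundaries were identical on all 3 days. It held 1199 border zone and 1364 sham tags on day 4, and 2153 in border zone and 1241 in sham on day 7. On day 14 it held 3863 border zone tags, approximate, and 1475 sham tags. Its listed ratio was 0.879 (0.813 to 0.951), 2.34 (2.18 to 2.51) and 3.59 on days 4, 7 and 14. With whole tags and 1 factor per day, from the summed listed tags, the ratio of day 4 was 0.949 (0.877 to 1.03). chr10:7228751-7237250 gave 1.04 (0.995 to 1.10), 2.62 and 2.44 on days 4, 7 and 14. Next in order were chr8:19923751-19933250 with 1.09, 2.26 and 2.28, chr8:19974251-19998250 with 1.11, 1.95 and 1.38, and chr6:47686751-47716750 with 0.924, 1.26 and 1.34. Listed values of a day carry more than 1 factor, so listed ratios of different spans are not all on the same scale. With 1 factor per day, chr8:19923751-19933250 gave 1.17, 2.37 and 2.60. In each of these 5 spans, chosen for a high mean over the same days, the ratio of day 4 was the lowest of the 3 days.

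The rank order of span ratios was most alike between days 7 and 14, although the ratios themselves were lowest on day 7. Among spans wide on 1 day the median log2 ratio was -0.14, -0.50 and -0.08 on days 4, 7 and 14. Over all spans listed on both days, Spearman's rho of the log2 ratio was 0.79 for days 7 and 14 (n = 247), 0.35 for days 4 and 7 (n = 247) and 0.27 for days 4 and 14 (n = 240), as descriptions across spans. The labelled mouse line, the stated tamoxifen, the isolation of nuclei and the aligner are shared by days 7 and 14 only, and their part in this order was not tested. Of the 42 sham-higher wide regions of day 7, 33 were listed on day 4 with a median log2 ratio of -0.27, and 31 of these lay below 0. On day 14, 38 were listed with a median of -0.48, 35 of them below 0 and 22 with a sham-higher region inside. Neither day placed a border zone-higher region in any of the 42. Lying below 0 was common elsewhere too, since 39 of the 49 non-differential wide regions of day 7 listed on day 4 did so, with a median of -0.19. On day 14, 8 of 47 non-differential ones lay below 0, and 0 held a sham-higher region. Of the 22 border zone-higher wide regions of day 7, 19 were listed on day 4 with a median log2 ratio of 0.26, and 7 held a border zone-higher region. On day 14, 19 were listed with a median of 1.19, and 18 held a border zone-higher region. Among non-differential wide regions of day 7 a border zone-higher region was present in 7 of 49 on day 4 and in 20 of 47 on day 14. The 6 border zone-higher regions of day 4 mostly did not carry over in this way. On day 7, 4 of them were listed, 1 with a border zone-higher and 1 with a sham-higher region. On day 14, 4 were listed, also 1 with a border zone-higher and 1 with a sham-higher region. One of the 6, chr10:74632251-74637250, had more border zone than sham tags per 1000000 listed tags on all 3 days.

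The conditions were tested over the 3 days with edgeR's quasi-likelihood test on whole tags, with day as a block, in loci listed on all 3 days. Of 263 loci with a wide region, 235 were tested, and at a Benjamini-Hochberg adjusted p below 0.05 the border zone was higher in 21 and sham in 4. That is 8.94% against 7.8% of all 19469 loci tested for border zone, and 1.70% against 2.43% for sham. The median log2 difference was -0.00 over wide loci and -0.01 over all loci tested, with 116 wide loci above 0 and 119 below. Of the 21 loci called for the border zone, 5 lay in the chromosome 5 cluster and 6 in the chromosome 8 cluster, and without both clusters 10 of 223 were called, or 4.48%. The counts rest on the days used. Without day 4 they were 40 for border zone and 33 for sham, or 17.0% and 14.0% of wide loci against 15.7% and 10.9% of all loci tested. Without day 7 they were 18 and 1, or 7.66% and 0.426% against 4.81% and 0.667%. Without day 14 they were 7 and 0, or 2.98% and 0% against 2.73% and 0.0822%, with 19 wide loci at an unadjusted p below 0.05 in either direction. Without the block by day, 0 wide loci were called for either condition by edgeR, with 2 at an unadjusted p below 0.05, while DESeq2 with the block called 16 and 3.

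The largest difference among called loci was at chr10:74632251-74637250, wide on day 4. It had 141 border zone (approximate) and 48.3 sham tags per 1000000 listed tags on day 4. The values were 99.8 in border zone and 41.9 in sham on day 7, and 85.3 in border zone and 42.4 in sham on day 14. Its log2 difference was 1.42 (SE 0.17, edgeR adjusted p 1.55e-05). The 5 loci of the chromosome 5 cluster had differences between 1.23 and 1.41, and chr8:56198751-56209250 reached 1.19 (SE 0.26, edgeR adjusted p 0.00339). Tags per 1000000 listed tags were higher in the border zone on all 3 days in 19 of the 21 loci. These loci were called on the same libraries with day as a block, so the shared direction is no separate support. The exceptions were chr8:56198751-56209250 and chr17:3075751-3083250, both lower in the border zone on day 4. At chr17:3075751-3083250 the tags per 1000000 were 21.7 in border zone and 27.8 in sham on day 4, 1067 in border zone and 337 in sham on day 7, and 405 in border zone and 174 in sham on day 14.

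The 4 loci called for sham were lower in the border zone on every day, in the same libraries on which they were called. chr11:58819251-58827750 had 237 border zone and 301 sham tags per 1000000 listed tags on day 4, 216 in border zone and 447 in sham on day 7, and 198 in border zone and 409 in sham on day 14, with a log2 difference of -0.65 (SE 0.18, edgeR adjusted p 0.0233). The other three were chr8:71410251-71417250 at -0.65, chr5:122552251-122564750 at -0.64 and chr9:110669251-110678750 at -0.56, with edgeR adjusted p between 0.0291 and 0.0373. With DESeq2's size factors in edgeR, 2 loci were called for sham.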

How the data were processed

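The 6 ATAC-seq libraries are 1 border zone and 1 sham library on each of 3 days, and 30 RNA-seq samples were not analysed here. The submitters' processing notes name Bowtie2 for day 4, BWA for days 7 and 14, and bedtools and the build mm9 for all, so per the submitters' processing notes the aligner changed with the day. Their versions and the region caller were not given in the sources used here. Columns in the 9 lists hold, per the file headers, border zone and sham tags of each region. Sham tags are deposited counts. Border zone tags are a deposited signal scaled by the authors to sham, while the day 4 non-differential list holds counts for both. Of 85106 scaled values, 97.6% were a whole number times 1 factor of the day (1, 1.03 or 1.10 on day 4, 1.17 or 1.35 on day 7, 1.18 or 1.37 on day 14), which gave back whole tags. For 43 wide regions this was approximate, with the most frequent factor. Every listed region starts on a grid of 500 bp, and the widths of wide regions are multiples of 500 bp. The full depth of the libraries is unknown here, and 0 columns of unmapped samples were used.

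Wide regions from separate days with 1 bp or more in common formed spans. A day's listing of a span was wide if a region of at least 5000 bp overlapped it. Tags and ratios of a span sum whole regions, including parts that reach past its ends. For the test, all overlapping regions were joined into loci, and whole tags were summed. Only loci with at least 10 tags in every library were tested. edgeR 4.0.16 with TMM and a model of day and condition left 2 residual degrees of freedom. The libraries of a day form a pair through the day in the labels, and day is the block. Nothing says that libraries came from separate animals, so p-values reflect only how far these libraries vary, which may be technical. The SE is the absolute log2 difference divided by the square root of F. The fit was tested on simulated data with the same fold on every day, so differences that vary between days were not covered. DESeq2 1.42.0 in R 4.3.3, pandas 2.3.3 and SciPy 1.17.1 were also used. Intervals are exact Clopper-Pearson 95% intervals, cover counting error only, and were converted to ratios through the border zone share of tags. Tags carry no molecular identifiers and may repeat a molecule. Alternatives were other width limits (4000 and 10000 bp), overlaps, scalings and filters and leaving out each day.

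Regions named are the 10 widest, per day those with the 3 highest and 3 lowest densities and ratios, the 5 spans with the highest and lowest mean ratio among those wide on all days, and, of spans wide on 1 day, the 5 with the most narrow regions elsewhere and the 5 widest listed on no other day. Not all of them are written out. The clusters on chromosomes 5 and 8 and the called loci were chosen after their values were seen. The members and lists were chosen with earlier results of these data known.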

Additional observations from a re-analysis of the deposited data

Results flagged for a closer look

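At a pair of the spans wide on all 3 days, the direction of the listed values on day 4 was opposite to that on days 7 and 14, with counting intervals on either side of 1. At chr8:56198751-56209250 the border zone over sham ratio was 0.879, 2.34 and 3.59 on days 4, 7 and 14. At chr6:47686751-47716750 it was 0.924, 1.26 and 1.34. The values of day 4 are unscaled counts, while those of days 7 and 14 are scaled. With whole tags and 1 factor per day, from the summed listed tags, the ratio of day 4 was 0.949 (95% interval 0.877 to 1.03) at the first and 0.997 (0.967 to 1.03) at the other, so both intervals include 1 and the reversal rests on the scaling. With 1 library per condition and day, the difference between days was not tested. It cannot be told apart from the change of mouse line, stated tamoxifen, isolation and aligner.

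Another 15 regions of 5000 bp or more lay outside chromosomes 1 to 19, on the sex chromosomes and on unplaced or random sequences, and entered no comparison above. Of these, 9 were border zone-higher, 0 sham-higher and 6 non-differential, and 11 of the 15 came from day 7.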

How the results depend on the processing

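The count of wide regions moved with the width limit, to 13, 11 and 9 at 10000 bp and to 435, 254 and 201 at 4000 bp on days 4, 7 and 14. With abutting regions joined, an alternative chosen after seeing the data, it was 254 on day 7 and 161 on day 14. Sham tags alone gave median densities of 151, 148 and 428 tags per kb. The border zone over sham ratio stayed below 1 in every setting. Whole tags relative to all listed regions gave 0.970, 0.878 and 0.934, and the median ratio gave 0.907, 0.890 and 0.969. At 10000 bp or more it was 0.913, 0.730 and 0.991, and without the clusters of chromosomes 5 and 8, also chosen after seeing the data, it was 0.752 on day 7 and 0.927 on day 14. Spans wide on 1, 2 and 3 days numbered 17, 3 and 3 at 10000 bp and 459, 129 and 48 at 4000 bp. The difference in the share of tags stayed negative in every setting, between -0.305 and -0.119 percentage points with a day left out (exact p 0.5, the smallest 2 days allow). It was -0.512 over all regions inside spans, -0.0719 at 10000 bp or more and -0.194 with approximate tags at the smallest factor, where the difference of day 14 was -0.0481 against -0.129 as reported.

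The block is the pairing of libraries by day. With no replicate block, edgeR called 0 wide loci for border zone and 0 for sham, with 2 at an unadjusted p below 0.05. With a day left out, between 7 and 40 were called for border zone and between 0 and 33 for sham. At 10000 bp the counts were 3 and 0 of 19 wide loci, with 6 at an unadjusted p below 0.05, without both clusters border zone had 10, and with DESeq2 size factors sham had 2. The causes were not tested. Counts over all tested loci were 997 and 112 with DESeq2, 1519 and 473 with edgeR, and 0 and 0 with no block. Counting intervals hold no spread between animals, which 1 library per condition and day cannot show.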
